A study of Mus musculus with 4 samples.

Results

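The genes described here encode the eukaryotic translation initiation factors (eIFs). They were taken by name, as every row of the deposited table whose symbol is Eif followed by a digit and further letters or digits, with the eIF2 kinase genes (Eif2ak) left out, which gave 52 genes of 32681 in the table. RNA was sequenced from 4 primary neuron cultures of wild-type CD-1 mouse neocortex at embryonic day 13. In 2 cultures cells were transfected with a short hairpin RNA (shRNA) as control, and in the other 2 one that targets DcpS and is called shDcPS-2 in the titles. DcpS is the scavenger enzyme that breaks down the free cap left when an mRNA has been degraded from its 3′ end. All 4 cultures carried a hairpin, and the labels give no share of transfected cells, so each culture can also hold cells without one. Whether the cultures derive from different litters is not stated, and the p-values therefore cover the spread between these libraries only.

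Initiation begins when eIF2 brings the initiator tRNA to the small ribosomal subunit, which also binds eIF1, eIF1A, eIF3 and eIF5. The mRNA is recruited through its cap, which is held by eIF4E, while the scaffold eIF4G links eIF4E to the helicase eIF4A and to eIF3. After start codon recognition eIF2 leaves as its GDP form and is recharged by eIF2B. The 4E-BP proteins compete with eIF4G for eIF4E and are controlled by mTOR, and in neurons this step is known for its role in local translation at synapses. Free cap structures, the substrate of DcpS, can also be bound by eIF4E.

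Dcps itself gave 499.8 and 506.6 normalised reads in the control libraries (reads divided by the authors' size factor for each library) and 114.5 and 119.6 with DcpS shRNA. The mean was 23.3% of that in the controls, with a log2 fold change of −2.10 (SE 0.11; limma, Benjamini-Hochberg adjusted p 1.52e-08). The libraries held 17754768 to 21793685 recovered reads. Neuronal markers were abundant in both groups, with sums over 10 genes of 101755 and 103803 normalised reads in controls and 97918 and 98614 in DcpS shRNA libraries. Of these 10 genes, Rbfox3 was called higher and Snap25 and Syt1 lower. Some other markers moved with the groups: of 7 meningeal fibroblast and matrix genes 7 were called lower, where 3.65% of all genes tested were. The 7 genes summed to 11251 and 12352 normalised reads in controls and to 6631 and 6844 in DcpS shRNA libraries. Also called lower were 3 of 5 tested endothelial and mural genes and 3 of 8 radial glia and astrocyte genes, with 0 called higher in either list. In the glial list the lower genes were Gfap, Aqp4 and Gja1. The rest were not called, with log2 fold changes of 0.13 for Sox2, 0.14 for Pax6, 0.00 for Fabp7, −0.12 for Slc1a3 and −0.43 for Aldh1l1. Of 4 tested oligodendrocyte lineage genes Mbp was called higher. Of 6 GABAergic interneuron, 7 microglia and macrophage and 4 red blood cell genes 0 were called. Pecam1, an endothelial gene that was not called, gave 5.70 and 12.3 normalised reads in controls and 19.99 and 14.5 in DcpS shRNA libraries, while Cldn5, a defining endothelial gene, had at most 1.90 normalised reads in any library. In bulk RNA, fewer cells of a type and less RNA per cell cannot be told apart, and the part of these shifts in the values below was not tested.

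Initiation factor RNA stayed close to its control level. The 52 genes together took 1.05% and 1.04% of all reads in controls and 1.06% and 1.06% in DcpS shRNA libraries. Each of the 52 passed the filter on low counts. At a Benjamini-Hochberg adjusted p under 0.05 over all 18110 genes tested (limma), 1 was higher (Eif1), 2 were lower (Eif4a2 and Eif2b5) and 49 did not pass. This is 5.77% of the initiation factors, where 5.79% of all genes tested were called, 2.14% higher and 3.65% lower, so the share of calls was that of the background. The median log2 fold change was 0.01 for the initiation factors and 0.00 for all genes tested, with 28 above 0 and 24 below. An unadjusted p under 0.05 was reached by 8 of the 52 and by 3380 of all genes tested.

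The changes were small as well as few. The median size of the log2 fold change, without its sign, was 0.05 for the initiation factors and 0.11 for all genes tested. Most initiation factors are abundant and low counts inflate fold changes, so the comparison was repeated at a mean of at least 1000 normalised reads. There the median size was 0.04 over 38 initiation factors and 0.07 over 5044 genes, and 3 initiation factors (7.89%) were called against 8.72% of those genes. The 95% interval of the fold change lay inside 1.2-fold in either direction for 42 of the 52 genes (80.8%) and inside 1.5-fold for 49 (94.2%), against 35.8% and 69.1% of all genes tested. For all 38 genes at the higher minimum it lay inside 1.5-fold, as it did for 98.8% of the 5044 genes there. Inside 1.2-fold it lay for 92.1% of these 38 and 80.1% of the 5044. The exceptions at 1.5-fold were Eif4ebp3, Eif4a3l1 and Eif4a3l2, the genes with the fewest reads, for which changes beyond 1.5-fold lay inside the interval at this depth. The control and DcpS shRNA libraries did not overlap for 26 of the 52 genes (50%), where 48.4% of all genes tested and 53.7% of those at the higher minimum did not overlap, so non-overlap alone marks nothing here.

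**Figure D1:**
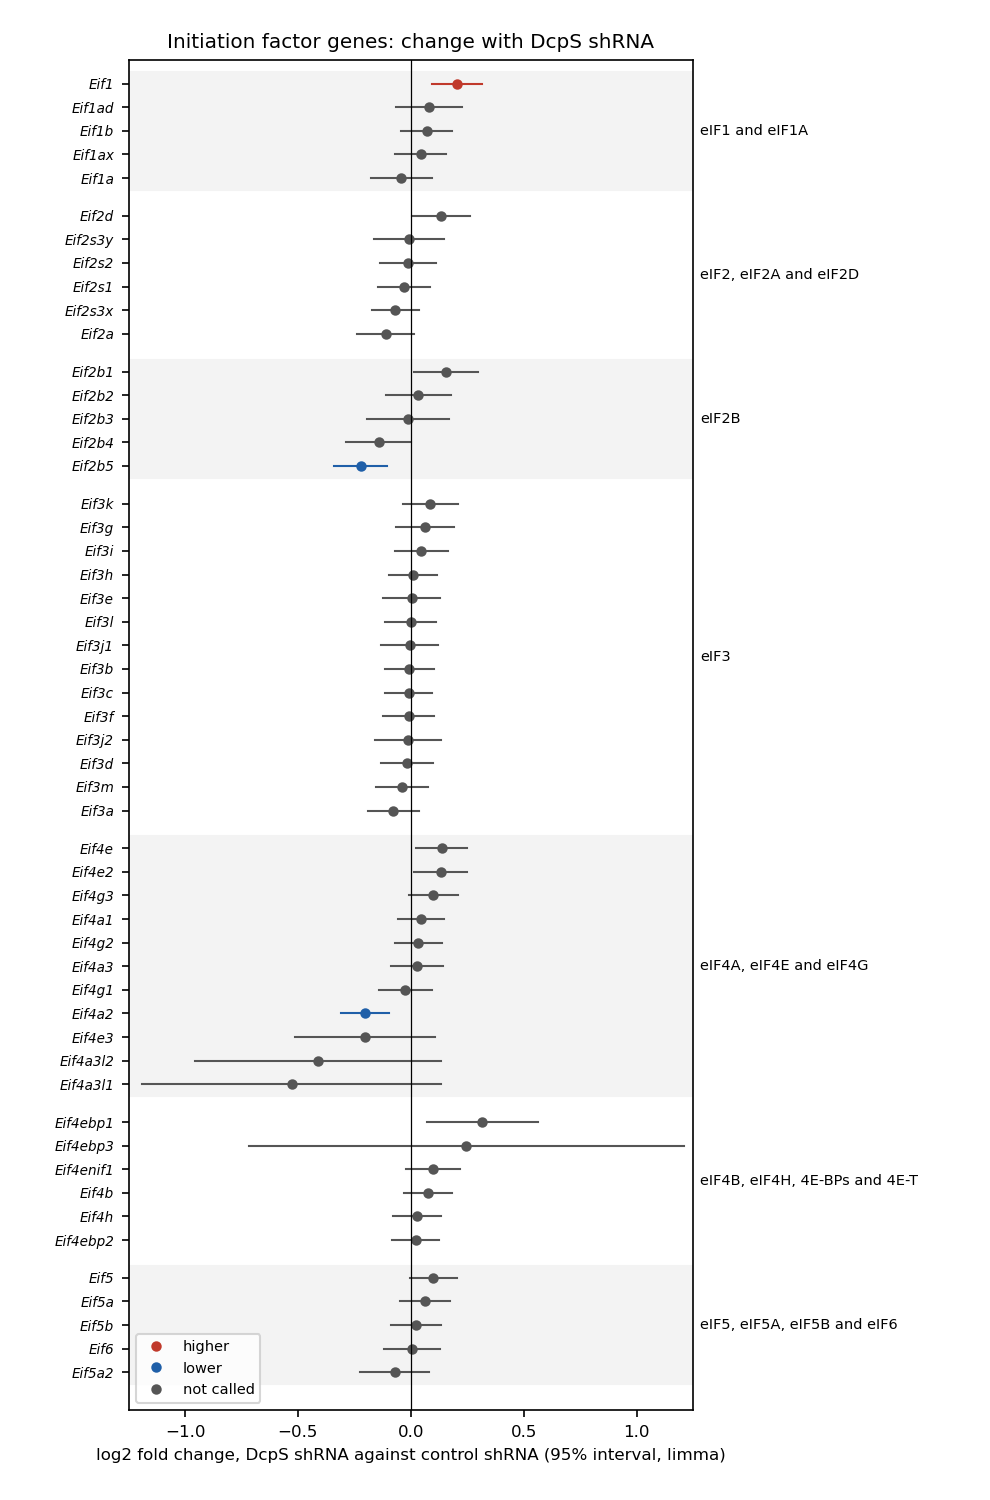
Each of the 52 initiation factor genes is drawn by its log2 fold change (point) with its 95% interval (line), grouped by role, with genes called higher in red, called lower in blue and not called in grey. Eif1 lies at 0.21, Eif4a2 at −0.20 and Eif2b5 at −0.22, and the 14 eIF3 genes lie between −0.08 and 0.09.

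Sequences are shown for one feature of the 3′ untranslated regions (3′ UTRs) that moves with the group comparison. An earlier look at these data singled out 2 overlapping 7-base words, ACGTGCA and CACGTGC, which are both present in the 3′ UTR of Dcps and were common among genes called lower. The words were searched on the transcript strand of the coding transcripts of the GENCODE M21 basic set (GRCm38). At least 1 of them was found in 7.86% of the 13709 genes tested and scanned, in 32.9% of those called lower and in 5.98% of those called higher. Because the words were picked from these same data, these shares and the medians below are a description and no independent support. Among the initiation factors 3 of 52 (5.77%) have one, namely Eif4a2, Eif4e3 and Eif2s3x. The 29 bases around each are given 5′ to 3′ with the word in capitals, because 1 of the 2 lower initiation factors is among these genes. They lie at chr9:35124745-35124773 (minus strand) for Dcps, chr16:23113359-23113387 (plus strand) for Eif4a2, chr6:99625414-99625442 (minus strand) for Eif4e3 and chrX:94188993-94189021 (minus strand) for Eif2s3x.
Dcps: ctatcacctgcACGTGCAtttcacagctc
Eif4a2: aggcgatcacaACGTGCAttgtgcttcct
Eif4e3: ttgtctcaatgACGTGCAtttctctgaac
Eif2s3x: aatctattcccCACGTGCctccaattttc
Read outward from the word without a gap, the Dcps stretch shared 9 bases with that of Eif4a2, 11 with that of Eif4e3 and 7 with that of Eif2s3x. The log2 fold changes of the 3 genes were −0.20, −0.20 and −0.07, and the median over all 1077 genes with a word was −0.10 against 0.01 without. The sequence of the hairpin is not given in the sources used here, and the part of these words in any change was not tested.

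The helicase eIF4A is encoded by a pair of near-identical genes, Eif4a1 and Eif4a2, of which Eif4a2 is the form enriched in brain and Eif4a1 the form typical of growing cells. Eif4a2 (chromosome 16, 23107444 to 23114136, plus strand, GRCm38) gave 9567 and 9478 normalised reads in controls and 8087 and 8483 in DcpS shRNA libraries. Both DcpS shRNA libraries were below both controls, with means of 9523 ± 63.1 and 8285 ± 279.9 (SD, n = 2 each). The log2 fold change was −0.20 (SE 0.05, 95% interval −0.31 to −0.09; limma, Benjamini-Hochberg adjusted p 0.0256). Without control 1 the adjusted p was 0.253 and without control 2 it was 0.209, so the call needs both controls. Eif4a1 gave 16149 and 15814 reads in controls and 16480 and 16513 in DcpS shRNA libraries, a log2 fold change of 0.05 (SE 0.05) that was not called.

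The balance of reads between these helicases differed between the groups. The ratio of Eif4a2 to Eif4a1 reads within a library was 0.592 and 0.599 in controls and 0.491 and 0.514 in DcpS shRNA libraries, a description that carries no test of its own. The third family member, Eif4a3, belongs to the exon junction complex rather than to initiation. It gave 2416 and 2321 reads in controls and 2469 and 2365 in DcpS shRNA libraries, so its groups overlapped. Its copies Eif4a3l1, at 21.9 and 33.8 reads in controls and 18.2 and 19.0 in DcpS shRNA libraries, and Eif4a3l2, at 33.3 and 37.9 against 27.3 and 25.7, were lower without passing the test (limma, Benjamini-Hochberg adjusted p 0.397 and 0.427). How reads that match several genes were counted is not stated, so values of these near-identical genes are uncertain. The processed pseudogene Eif4a-ps4 alone held 2859 to 3005 normalised reads in the 4 libraries. The exons of Eif4a2 also overlap several small RNA genes and 194 bases of Rfc4 on the other strand, which had 590 to 654 normalised reads in the 4 libraries.

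Eif4e encodes the cap-binding protein itself. It gave 3136 and 3135 normalised reads in controls and 3344 and 3557 in DcpS shRNA libraries. Both DcpS shRNA libraries were above both controls, by a log2 fold change of 0.14 (SE 0.05, 95% interval 0.02 to 0.25) that did not pass after adjustment (limma, unadjusted p 0.0198, Benjamini-Hochberg adjusted p 0.165). Without DcpS shRNA 1 it was called (adjusted p 0.01335), and leaving out any of the other 3 libraries gave no call. Eif4e2, whose product 4EHP binds the cap without recruiting eIF4G, showed a like difference, from 1637 and 1617 reads to 1755 and 1810 (0.13, SE 0.05, adjusted p 0.204). The ratio of Eif4e2 to Eif4e was therefore 0.519 ± 0.00442 in the controls and 0.517 ± 0.0113 with DcpS shRNA (SD, n = 2 per group). Eif4e3, an atypical cap binder, was scarce, at 165.3 and 133.3 reads in controls and 121.7 and 136.3 in DcpS shRNA libraries, and its groups overlapped.

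The eIF4G scaffolds gave no call. Eif4g1, the canonical scaffold, gave 9604 and 9290 normalised reads in controls and 9773 and 8834 in DcpS shRNA libraries, so the DcpS shRNA libraries lay on either side of the controls. Eif4g3, its close relative, gave 5220 and 5110 against 5659 and 5411, without overlap and with a log2 fold change of 0.10 (SE 0.05; limma, Benjamini-Hochberg adjusted p 0.317). Eif4g2, known as DAP5, lacks the eIF4E-binding part and acts in cap-independent initiation. It had the most reads of any initiation factor, 37374 and 36405 in controls and 38250 and 37277 in DcpS shRNA libraries, and its groups overlapped. The 11 genes of eIF4A, eIF4E and eIF4G summed to 84350 normalised reads in the controls and to 101% of that with DcpS shRNA.

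Of 6 cofactors and inhibitors of the cap-binding complex 0 were called in limma, edgeR or DESeq2 on all 4 libraries. In limma 1 had an unadjusted p under 0.05. All 6 had log2 fold changes above 0 in limma, where 9085 of all 18110 genes tested had one above 0. Eif4ebp1, a 4E-BP, had the largest in limma, at 194.8 and 221.5 normalised reads in controls and 242.6 and 276.0 in DcpS shRNA libraries. Its log2 fold change was 0.32 (SE 0.12; Benjamini-Hochberg adjusted p 0.140), called only when DcpS shRNA 1 was left out (0.0461). Eif4ebp2, the main 4E-BP of brain, was far more abundant and nearly level, at 6366 and 6334 reads against 6495 and 6395, a log2 fold change of 0.02 (95% interval −0.08 to 0.13). Eif4ebp3 was at the edge of detection, with 11.4 and 11.3 reads in controls and 8.18 and 22.3 in DcpS shRNA libraries. Its log2 fold change was larger than that of Eif4ebp1 in edgeR and DESeq2, and was below 0 when DcpS shRNA 2 was left out. The ratio of Eif4ebp2 to Eif4e was 2.03 and 2.02 in controls and 1.94 and 1.80 in DcpS shRNA libraries. Eif4b and Eif4h, which assist the helicase, had log2 fold changes of 0.08 and 0.03. Eif4enif1, which encodes the eIF4E transporter 4E-T, had one of 0.10, from 1678 and 1793 reads to 1842 and 1871.

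**Figure D2:**
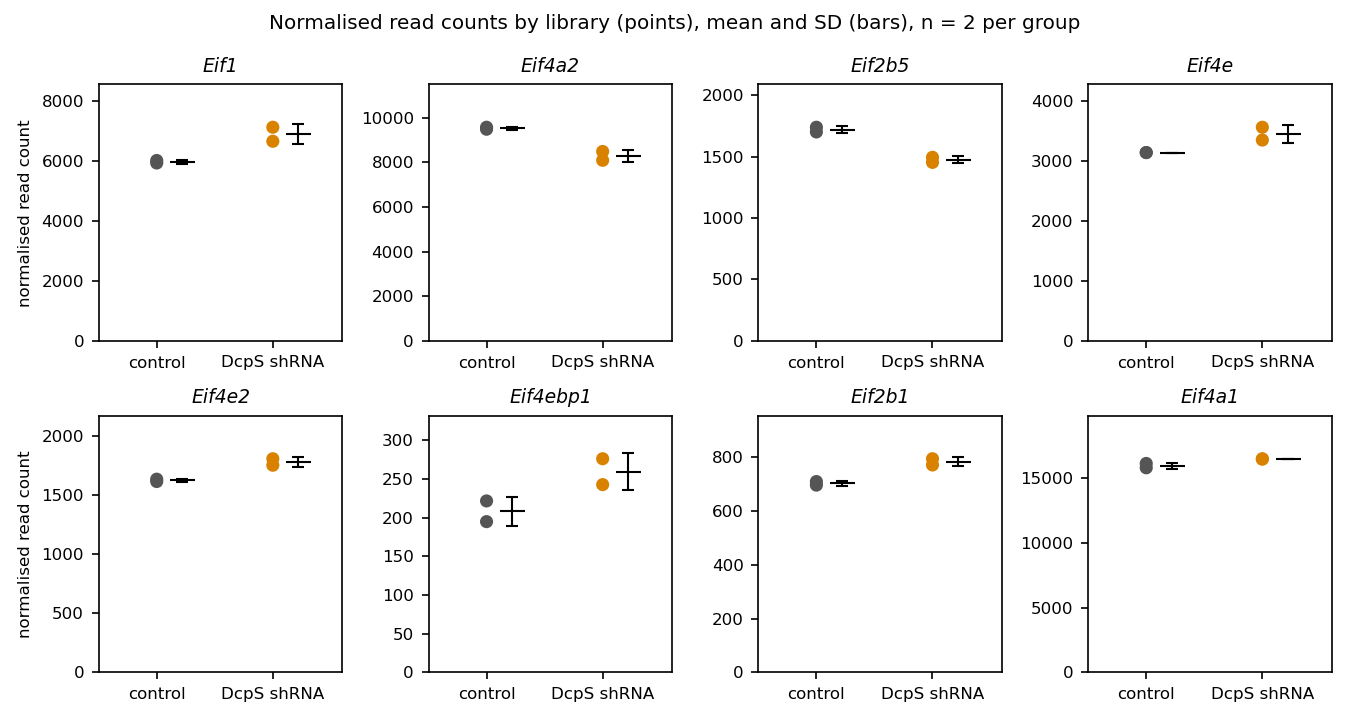
Normalised read counts of 8 initiation factor genes are shown as 1 point per library, with the mean and SD of each group (n = 2) beside the points and each axis starting at 0. Eif4a2 and Eif2b5 are lower and Eif1 is higher in both DcpS shRNA libraries, while Eif4a1 stays between 15814 and 16513 reads.

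Eif1 encodes the factor that keeps the scanning ribosome from settling on a poor start codon. On chromosome 11 (100319885 to 100322096, plus strand, GRCm38), it gave 5932 and 6015 normalised reads in controls and 6656 and 7124 in DcpS shRNA libraries. Both DcpS shRNA libraries exceeded both controls, and the mean rose from 5973 ± 58.6 to 6890 ± 330.9 (SD, n = 2 per group). The log2 fold change was 0.21 (SE 0.05, 95% interval 0.09 to 0.32; limma, Benjamini-Hochberg adjusted p 0.0280). Leaving out control 1 (adjusted p 0.228) or control 2 (0.163) ended this call too. Eif1b, a near copy of Eif1, gave 2058 and 2074 reads against 2141 and 2197, a log2 fold change of 0.07 (SE 0.05) that was not called, and the ratio of Eif1b to Eif1 went from 0.347 and 0.345 to 0.322 and 0.308. The pseudogene row Eif1-ps1 held 63.7 to 84.9 reads in the 4 libraries.

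The eIF1A genes, whose product opens the small subunit for scanning with eIF1, did not pass. Eif1ax gave 4693 and 4414 normalised reads in controls and 4615 and 4766 in DcpS shRNA libraries, and Eif1a gave 932 and 987 against 946 and 916. Both pairs of groups overlapped, with log2 fold changes of 0.04 and −0.04. Eif1ad, a nuclear protein with an eIF1A-type domain, gave 688 and 718 reads against 726 and 762 (log2 fold change 0.08, SE 0.07, not called).

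Within eIF2B, the exchange factor that recharges eIF2, 1 of 5 subunit genes was called, where 5.79% of all genes tested were. A single call among so few genes does not set the group apart from that share. Eif2b5, which encodes the catalytic epsilon subunit and is a gene of the leukodystrophy called vanishing white matter disease, was lower. On chromosome 16 (20498817 to 20509323, plus strand, GRCm38), it gave 1739 and 1700 normalised reads in controls and 1453 and 1494 in DcpS shRNA libraries, without overlap. The means were 1720 ± 27.2 and 1473 ± 29.2 (SD, n = 2 each), a log2 fold change of −0.22 (SE 0.06, 95% interval −0.34 to −0.10; limma, Benjamini-Hochberg adjusted p 0.0256). The call ended without control 1 (adjusted p 0.191), without control 2 (0.106) and with DESeq2 (0.139). No annotated gene overlaps its exons, and its 3′ UTR has neither 7-base word.

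The other eIF2B subunits did not pass the test. Eif2b4, the delta subunit, gave 736 and 741 normalised reads in controls and 657 and 682 in DcpS shRNA libraries (log2 fold change −0.14, SE 0.07; limma, Benjamini-Hochberg adjusted p 0.278). Eif2b1, the alpha subunit, gave 696 and 710 reads against 771 and 795 (0.15, SE 0.07, adjusted p 0.223). Eif2b2 and Eif2b3, the beta and gamma subunits, had overlapping groups and log2 fold changes of 0.03 and −0.01. The ratio of Eif2b5 to Eif2b1 was 2.50 and 2.40 in controls and 1.88 and 1.88 in DcpS shRNA libraries. That of Eif2b5 to Eif2b2 was 2.41 and 2.43 in controls and 2.02 and 2.03 in DcpS shRNA libraries, so the epsilon gene was lower relative to either partner in both libraries. The 5 subunit genes together summed to 94.9% of their control level.

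**Figure D3:**
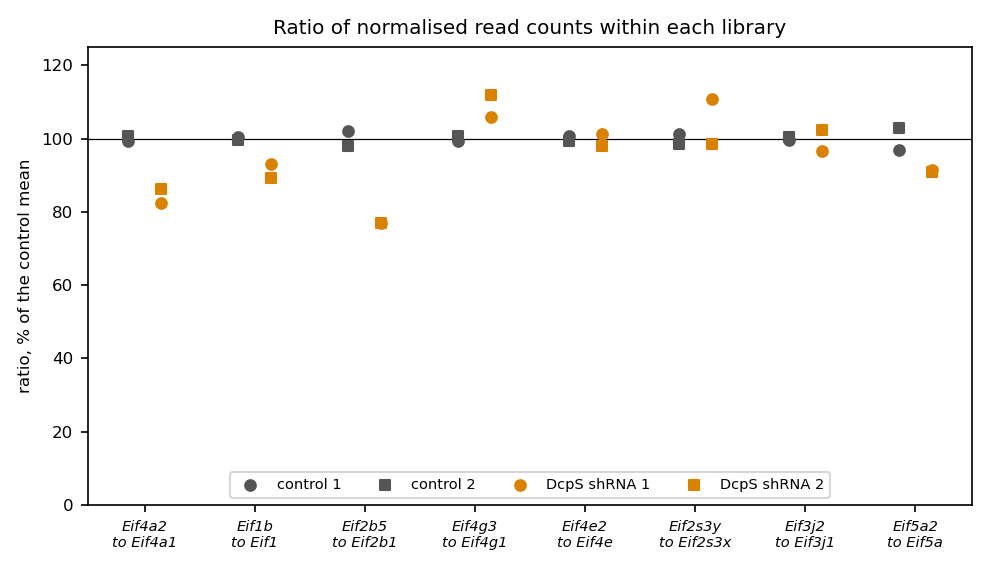
Ratios of normalised read counts between paired initiation factor genes within each library are plotted as a percentage of the control mean, with controls in grey and DcpS shRNA in orange, circles for libraries numbered 1 and squares for 2. Eif4a2 to Eif4a1 and Eif2b5 to Eif2b1 lie below the controls in both DcpS shRNA libraries, and Eif4e2 to Eif4e and Eif3j2 to Eif3j1 do not separate.

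The eIF2 subunits, carriers of the initiator tRNA, were grouped with the alternative carriers eIF2A and eIF2D. Of these 6 genes 0 were called (limma; Eif2d alone had an unadjusted p under 0.05, and edgeR and DESeq2 also called none). Eif2s1, the alpha subunit that stress kinases phosphorylate, gave 2022 and 1965 normalised reads in controls and 1957 and 1946 in DcpS shRNA libraries, a log2 fold change of −0.03 (95% interval −0.14 to 0.08). Eif2s2, the beta subunit, overlapped between groups at 3580 to 3997 reads over the 4 libraries. The gamma subunit is encoded on both sex chromosomes. Eif2s3x gave 7575 and 7641 reads against 7274 and 7229 (−0.07, SE 0.05), and Eif2s3y gave 776 and 762 against 814 and 720 (−0.01, SE 0.07). The ratio of Eif2s3y to Eif2s3x was 0.102 and 0.0997 in controls and 0.112 and 0.0996 in DcpS shRNA libraries. The Y-linked Ddx3y and Kdm5d also had overlapping groups, at 876 to 934 and 579 to 634 reads. Uty, also Y-linked, gave 276 and 318 reads in controls and 243 and 236 in DcpS shRNA libraries. Its groups did not overlap, and its log2 fold change of −0.31 (SE 0.11) was not called. Xist gave 28437 and 29455 reads in controls and 27885 and 24482 in DcpS shRNA libraries, so every culture held RNA of both sexes. The alternative tRNA carriers Eif2a and Eif2d lay at the ends of this group, with log2 fold changes of −0.11 (SE 0.06; limma, Benjamini-Hochberg adjusted p 0.341) and 0.13 (SE 0.06, adjusted p 0.256).

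The eIF3 genes encode the large scaffold that joins the small subunit to eIF4G. None of the 14 was called (limma; 0 had an unadjusted p under 0.05, and edgeR and DESeq2 called 0). Their log2 fold changes ran from −0.08 for Eif3a to 0.09 for Eif3k, with a median of −0.01, and 9 of the 14 were below 0. Eif3a, the largest core subunit, gave 7818 and 7845 normalised reads in controls and 7756 and 7106 in DcpS shRNA libraries. With DcpS shRNA 1 left out it was called lower (−0.14, adjusted p 0.0291), and with DcpS shRNA 2 left out it was not. Eif3k, a peripheral subunit, gave 2196 and 2202 against 2230 and 2442. Apart from these, Eif3c and Eif3h, the other 10 eIF3 genes lay between −0.04 (Eif3m) and 0.06 (Eif3g). Eif3c, a core subunit, stayed within 6496 to 6564 reads in the 4 libraries, and Eif3h within 4167 to 4265. The near-identical pair Eif3j1 and Eif3j2, which encode a loosely bound subunit, kept a ratio of 0.702 to 0.743 in the 4 libraries.

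Differences between libraries of the same group were often as large as those between groups. For 26 of the 52 initiation factors the gap between the DcpS shRNA libraries exceeded the gap between the group means, and for 23 the gap between the controls did. Of the 14 eIF3 genes 11 were higher in DcpS shRNA 2 than in DcpS shRNA 1. Eif3e, for example, gave 3596 and 4016 normalised reads in these libraries and 3706 and 3882 in the controls. These counts of gaps and directions were not made over all genes tested, so they cannot be called particular to initiation factors.

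The late factors gave no call (limma, 0 of 5; 0 had an unadjusted p under 0.05, and edgeR and DESeq2 called none). Eif5, the GTPase activator of eIF2, gave 6825 and 6731 normalised reads in controls and 7320 and 7200 in DcpS shRNA libraries (log2 fold change 0.10, SE 0.05; Benjamini-Hochberg adjusted p 0.297). Eif5b, which joins the subunits, had a log2 fold change of 0.02 (95% interval −0.09 to 0.13), and Eif6, which keeps the large subunit free, one of 0.00 (−0.12 to 0.13). Eif5a, the hypusine-bearing factor now known mainly for elongation, gave 7772 and 7248 reads against 7739 and 7933. Its relative Eif5a2 gave 626 and 620 against 588 and 599, without overlap but not called (−0.07, SE 0.07, adjusted p 0.667).

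**Figure D4:**
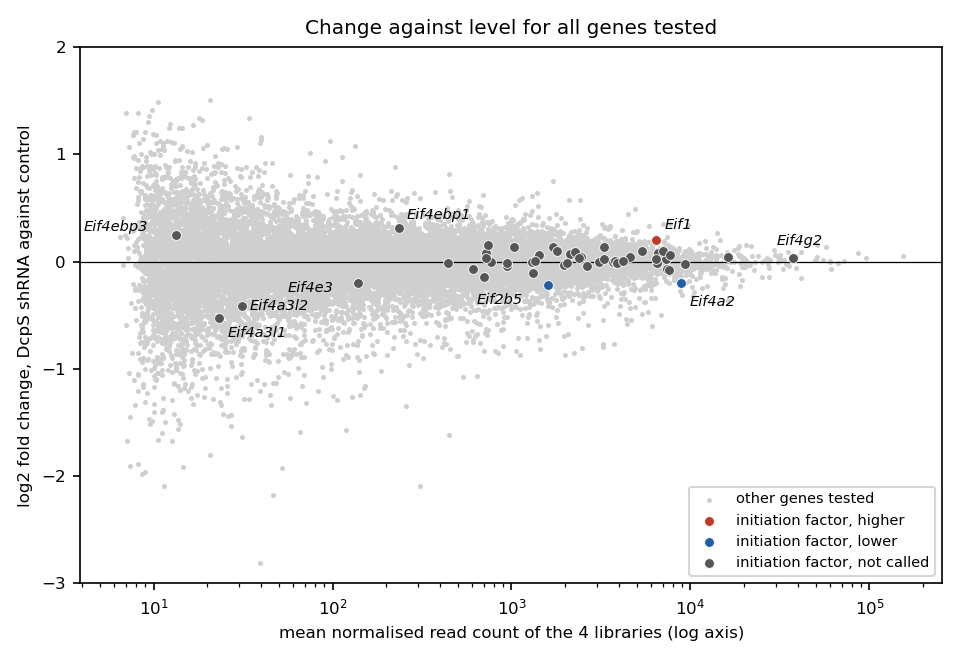
The log2 fold change of each of the 18110 genes tested is plotted against the mean normalised read count of the 4 libraries on a log axis, with initiation factors as large points coloured by call. Most initiation factors sit above 1000 normalised reads and within the narrow band around 0, and those farthest from it are the scarce Eif4a3l1 and Eif4a3l2.

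Levels were compared between genes as RPKM, reads scaled to the length of the annotated exons and to the library total, which depends on the union of exons used. In the controls Eif4a1 stood at 186 ± 2.59 RPKM and Eif4g2 at 183 ± 3.23 (SD, n = 2), so these neighbours overlapped. Below them came Eif5a at 159 ± 7.72, Eif1 at 144 ± 1.54, Eif3h at 131 ± 1.14 and Eif2s3x at 101 ± 0.71 RPKM, each lower than the one before in both controls. Eif4a2 stood at 90.0 RPKM, below Eif4a1. Among the cap-binding genes Eif4e stood at 26.3 RPKM, Eif4e2 at 10.95 and Eif4e3 at 2.996, against 55.4 for Eif4ebp2, 4.78 for Eif4ebp1 and 65.3 for Eif4g1. Within eIF3 the genes ranged from 11.3 RPKM for Eif3j1 to 131 for Eif3h, and within eIF2B from 3.43 for Eif2b3 to 33.4 for Eif2b5.

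Other translation genes were taken from a list of 87 names, of which 85 were in the table and tested. Of these 3 were called higher and 4 lower. This is 8.24%, against 5.79% of all genes tested and 8.72% of those with a mean of at least 1000 normalised reads. The median log2 fold change of the list was 0.01. The largest changes were in the mTOR pathway, where 1 of 21 genes was higher and 2 were lower. Rps6kb1, which encodes the mTOR target S6 kinase, gave 1698 and 1782 normalised reads in controls and 1163 and 1125 in DcpS shRNA libraries (log2 fold change −0.60, SE 0.06; limma, Benjamini-Hochberg adjusted p 7.28e-06). Sesn3, which encodes a sestrin, an upstream inhibitor of mTOR, gave 1803 and 1871 against 1068 and 1024 (−0.81, SE 0.06, adjusted p 6.72e-07). Both have a 7-base word in the 3′ UTR, Sesn3 both words, and the part of the words was not tested. Eef2k and Ppp1r15b, described below and also among the 4 called lower, have neither word. Another sestrin gene, Sesn1, was higher, at 1222 and 1258 against 1441 and 1415 (0.20, SE 0.06, adjusted p 0.0479).

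Among elongation and release genes 1 of 16 was higher and 1 lower. Eef1a2, the neuron and muscle form of elongation factor 1A, gave 1096 and 1094 normalised reads in controls and 1352 and 1387 in DcpS shRNA libraries (log2 fold change 0.32, SE 0.06; limma, Benjamini-Hochberg adjusted p 0.00281). Eef2k, the kinase that slows elongation by phosphorylating elongation factor 2, gave 1344 and 1327 against 1106 and 1053 (−0.31, SE 0.06, adjusted p 0.00472). Of 11 genes around the eIF2 kinases, Atf4, the stress transcription factor whose own mRNA is translated when eIF2 is phosphorylated, was higher, from 2595 and 2696 to 3043 and 3019 reads (0.20, SE 0.05, adjusted p 0.0356). Ppp1r15b, the constitutive partner of the eIF2 phosphatase, was lower, from 1548 and 1450 to 1345 and 1205 (−0.24, SE 0.06, adjusted p 0.0435). The calls of Atf4, Ppp1r15b and Sesn1 ended when control 1 was left out (adjusted p 0.3195, 0.279 and 0.3015) and with DESeq2 (0.131, 0.202 and 0.278). Without control 2 those of Atf4 (0.121) and Sesn1 (0.156) ended, without DcpS shRNA 1 that of Sesn1 (0.0615), and without DcpS shRNA 2 that of Ppp1r15b (0.161). Scaling by TMM ended the calls of Ppp1r15b (0.0517) and Sesn1 (0.0512), as did limma without the robust option (0.0511 and 0.0534). That of Sesn1 also ended with scaling to the library total (0.0505) and with no filter on low values (0.0654). Cap-binding partners (17 genes), poly(A)-binding proteins (8) and initiation helicases with recycling factors (12) gave 0 calls in limma, edgeR and DESeq2. In limma 6, 0 and 1 of them had an unadjusted p under 0.05, as had 3380 of all 18110 genes tested.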

How the data were processed

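Per the submitters' processing notes, HISAT2 2.2.0, SAMtools 1.3.1, Picard, featureCounts and DESeq2 were used with build GRCm38, with no role or order given. The sources used here name no annotation, strand setting or treatment of multi-mapping reads. The deposited values are a signal, read counts that the authors divided by 1 size factor per library: 100% of values came out as whole numbers of reads (tolerance 0.001) once multiplied by the library's factor, and these reads were used for the filter and the count tests.

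The main test was limma 3.58.1 (R 4.3.3) on log2(value + 1) with trend and robust empirical Bayes, two-sided, with Benjamini-Hochberg adjustment over all genes kept by filterByExpr of edgeR 4.0.16 (minimum count 10) and calls at 0.05. Fold changes on this scale are understated for low genes. The fit has 2 residual degrees of freedom, and an exact permutation test of 2 against 2 cannot go below p 0.333. Alternatives included edgeR and DESeq2 1.42.0 on the recovered reads. The script was tested on simulated data with the same spread between libraries in both groups. That test does not cover the unequal spread of the groups here.

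All 52 initiation factor symbols matched GENCODE M21, 2 through RefSeq synonyms. The genes, lists, 7-base words and tests were chosen with earlier results of these data known. Named are all called genes, the extremes of each role group, the cap-binding genes, paralog pairs and others singled out after their values were seen.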

Additional observations from a re-analysis of the deposited data

How the results depend on the processing

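The limma calls of Eif1, Eif4a2 and Eif2b5 held in the fits on all 4 libraries, apart from Eif2b5 under DESeq2. There, 448 of all genes, 1 initiation factor lower, 1 higher and 4 genes of the translation list were called. With 1 library left out, calls numbered 747 to 1745 over all genes, 0 to 3 initiation factors higher, 0 to 3 lower and 5 to 12 in the translation list. The group with a single library is then assumed to vary like the other. The DcpS shRNA libraries differed more from each other than the controls did (chi-square per degree of freedom 4.03 and 2.15). Fits without a DcpS shRNA library thus take their spread from the closer controls alone, and fits without a control from the wider pair. Without control 1 or control 2 no initiation factor was called in limma, where 4 and 5 had an unadjusted p under 0.05. All 3 initiation factors kept their direction in every setting run. Same-numbered libraries did not deviate together (correlation 0.04) and the labels do not say that they pair. With the replicate block limma called 1626 genes, 1 initiation factor higher and 2 lower. No scaling tried moved the median log2 fold change of all genes by 0.1. The cause of these differences was not tested. At this depth, genes with few reads, such as Eif4ebp3, have wide intervals.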
